A study of Mus musculus with 74 samples.

Results

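The 45 genes described here build new DNA or divide the cell. They were a given list of symbols, matched by symbol to the features of both deposited expression tables, and each of the 45 was found once among 23297 features with a gene symbol and 58976 features in all. By their roles, 18 act in DNA replication: the helicase subunits Mcm2, Mcm3, Mcm4, Mcm5, Mcm6 and Mcm7, the sliding clamp Pcna, the licensing factors Cdc6 and Cdt1, the helicase partner Gins2, the nucleotide enzymes Rrm1, Rrm2, Tyms and Tk1, the S-phase cyclins Ccne1 and Ccne2, the transcription factor E2f1, and Uhrf1, which carries DNA methylation across the fork. The other 27 act in chromosome segregation and cell division, among them Mki67, Top2a, the mitotic kinase Cdk1 with its cyclins Ccna2, Ccnb1 and Ccnb2, the kinases Aurka, Aurkb, Plk1, Bub1 and Bub1b, and the survival and chromosome passenger protein Birc5. Plk1 shares 1 feature with its neighbour Dctn5, so its values could not be separated from that gene.

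A cell that commits to division first releases E2F transcription factors, which switch on the replication genes, and later switches on the mitotic genes through the MuvB, B-Myb and FoxM1 proteins. Adult microglia in a healthy spinal cord divide rarely, and they are known to multiply when motor neurons degenerate. Neutrophils divide as precursors in the marrow, and these precursors carry granule protein RNA such as Camp, Mpo and Elane beside cell cycle RNA.

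The samples were 74 RNA-seq libraries of cells taken with CD11b magnetic beads from female mice: microglia (MG) from the spinal cord and macrophages (MP) from the sciatic nerves. SOD1-G93A mice carry mutant human SOD1 and develop motor neuron disease. Their MG were taken before symptoms (mean age 50.8 days, 4 libraries), at onset, defined as the weight peak (105 days, 5), at the early symptomatic stage of 10% weight loss (152.6 days, 4) and at end stage (169.4 days, 4). Control MG came from non-transgenic C57BL/6J (B6) mice aged 109.8 and 165.6 days and from mice carrying wildtype human SOD1 (WT) aged 107.3 and 165.4 days, with 4 libraries each. G93A MP were taken at the same 4 stages with 3, 3, 4 and 4 libraries, and each pre-symptomatic MP library pooled 2 mice. Another 4 end stage MP libraries are described as WT in one label field and as G93A in others, and are called the libraries described as WT. The remaining 23 libraries came from G93A mice that received marrow at onset from G93A or WT SOD1 donors, taken at the early symptomatic or end stage, with 3 libraries a group except 2 for MP with WT marrow at the early stage. Grafted and non-grafted libraries stand in separate tables and were not tested against each other.

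The deposited values are FPKM, fragments scaled to gene length and library total, so the read depth of each library is unknown. P2ry12, a microglial receptor, ranged from 88.4 to 2121 FPKM in non-grafted MG and from 0 to 116.2 FPKM in MP, and all 7 microglial markers reached 1 FPKM in every MG group. The macrophage receptor Csf1r was at 74.2 to 584 FPKM in MP, but the neutrophil gene S100a8 was at 24808 to 80760 FPKM and Camp at 5846 to 21401 FPKM in the same 18 libraries. Among MG, 4 of 33 libraries held S100a8 above 10000 FPKM: G93A onset replicate 5 (39129 FPKM, with Camp at 9387), G93A end stage replicate 4 (20413, Camp 4507), and WT at end stage age replicates 1 (32464, Camp 7241) and 2 (16679, Camp 3741). The other 29 MG libraries held S100a8 between 8.99 and 2020 FPKM. Mpo was at 384.7, 94.9, 46.7 and 27.5 FPKM in the 4 neutrophil-rich MG libraries, in the order named. It ranged from 5.34 to 2713 FPKM in MP and did not follow Camp throughout. MP onset replicate 1 had Camp at 14401 and Mpo at 5.34 FPKM, and MP pre-symptomatic replicate 2 had 5846 and 1644 FPKM. Erythroid RNA differed too: the haemoglobin gene Hba-a1 was at 16267 FPKM in onset replicate 5 and 6874 FPKM in end stage replicate 4. It was at 1985 and 1369 FPKM in the WT replicates 1 and 2, and reached 3491 FPKM among the other 29. Myelin RNA differed as well: the oligodendrocyte gene Mbp ranged from 21094 to 24164 FPKM before symptoms, from 1315 to 10029 FPKM at the early stage and from 1317 to 8319 FPKM at end stage. These contents are given beside the results they move with, and their part in those results was not tested. Fits with a marker list as a term are given as alternatives. Mbp did not overlap between pre-symptomatic and early or end stage libraries, so a myelin term and stage cannot be told apart there. In bulk RNA, more cells of a type and more RNA per cell cannot be told apart.

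Because the classes of replication and division genes are known to be switched on through different promoter elements, their promoters are shown first. The windows run from 250 bases before to 50 bases after the annotated start (RefSeq, GRCm38.p6; the first listed start of a gene), and 37 of the 45 genes had one. Aurkb, Stmn1, Mcm4, Tpx2, Kif20a, Ccna2, Gins2 and Ccne2 were not matched. Windows are written along the gene's strand, with capitals marking every match on either strand to an E2F-like element (TTTCCCGC, TTTCGCGC, TTTGCCGC or TTTGGCGC), to the cell cycle homology region (CHR, TTTGAA) and to the NF-Y element CCAAT. Mcm5 (chr8:75109259-75109558, plus strand) and Mcm6 (chr1:128359656-128359955, minus strand) stand for replication. Ccnb2 (chr9:70421505-70421804, minus strand) and Cdk1 (chr10:69352863-69353162, minus strand) stand for division.
Mcm5: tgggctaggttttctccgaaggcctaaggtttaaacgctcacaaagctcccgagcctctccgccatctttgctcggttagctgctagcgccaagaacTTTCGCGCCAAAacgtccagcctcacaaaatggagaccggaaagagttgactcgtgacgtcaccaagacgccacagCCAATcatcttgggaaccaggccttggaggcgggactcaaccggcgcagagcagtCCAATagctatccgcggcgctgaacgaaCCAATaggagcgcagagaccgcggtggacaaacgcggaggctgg
Mcm6: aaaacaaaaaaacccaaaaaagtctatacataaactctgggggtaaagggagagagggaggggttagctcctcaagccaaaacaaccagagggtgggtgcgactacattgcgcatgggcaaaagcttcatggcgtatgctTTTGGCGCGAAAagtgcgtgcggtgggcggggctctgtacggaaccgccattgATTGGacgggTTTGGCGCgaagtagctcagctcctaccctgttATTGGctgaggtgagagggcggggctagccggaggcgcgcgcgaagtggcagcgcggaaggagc
Ccnb2: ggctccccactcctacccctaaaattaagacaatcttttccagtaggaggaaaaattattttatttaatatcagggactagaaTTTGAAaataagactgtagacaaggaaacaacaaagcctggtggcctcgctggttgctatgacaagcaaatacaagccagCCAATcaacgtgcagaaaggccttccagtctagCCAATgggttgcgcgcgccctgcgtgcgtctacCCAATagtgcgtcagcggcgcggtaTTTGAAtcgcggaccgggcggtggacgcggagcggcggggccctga
Cdk1: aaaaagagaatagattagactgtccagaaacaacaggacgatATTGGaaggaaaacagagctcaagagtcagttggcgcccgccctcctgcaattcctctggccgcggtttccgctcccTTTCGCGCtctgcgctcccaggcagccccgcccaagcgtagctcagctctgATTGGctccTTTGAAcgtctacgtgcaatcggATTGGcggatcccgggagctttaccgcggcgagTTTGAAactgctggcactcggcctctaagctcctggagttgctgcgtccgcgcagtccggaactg

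In the Mcm6 window the E2F-like matches starting at bases 141 and 145 overlap on opposite strands, and in the Mcm5 window those starting at bases 98 and 102 do. Ccnb2 held 3 CCAAT matches, at bases 164, 197 and 230 of its window, followed by a CHR match at base 255. Cdk1 held both an E2F-like match at base 120 and CHR matches at bases 180 and 236. Over the windows matched, an E2F-like element occurred in 6 of 15 replication genes (40.0%) and 1 of 22 division genes (4.55%), against 2.32% of all 27025 windows. The CHR occurred in 1 of 15 replication genes (6.67%) and 17 of 22 division genes (77.3%), against 18.1% of all windows. CCAAT occurred in 9 of 15 (60.0%) and 20 of 22 (90.9%), against 37.9%. Birc5, Nusap1, E2f1, Tk1, Ccne1 and Tyms had none of these letters in their windows. The windows of E2f1, Cdc6 and Mcm7 lay wholly inside the features of these genes, past the first base along the gene's strand. The sequence before those features was thus not searched, and the shares of the replication genes include these windows. A match describes the letters and is not a mapped binding site.

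In non-grafted microglia most of the genes were low before symptoms and in both controls of onset age, and higher in G93A mice from onset on. Controls of end stage age varied: division scores were 0.919 to 1.78 in B6 mice and 1.47 to 3.81 in WT mice, so some of these libraries lay above onset replicates 1 and 4 and some above the early stage. The number of the 45 genes at 1 FPKM or more was 14 to 19 in the pre-symptomatic libraries, 29 to 45 at onset, 44 or 45 at the early stage and 44 or 45 at end stage. It was 13 to 21 in B6 mice of onset age and 16 to 29 in WT mice of that age. At end stage age it was 18 to 37 in B6 mice and 31 to 45 in WT mice. To follow each class by library, a score was taken as the mean log2(FPKM + 1) over its genes.

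**Figure D1:**
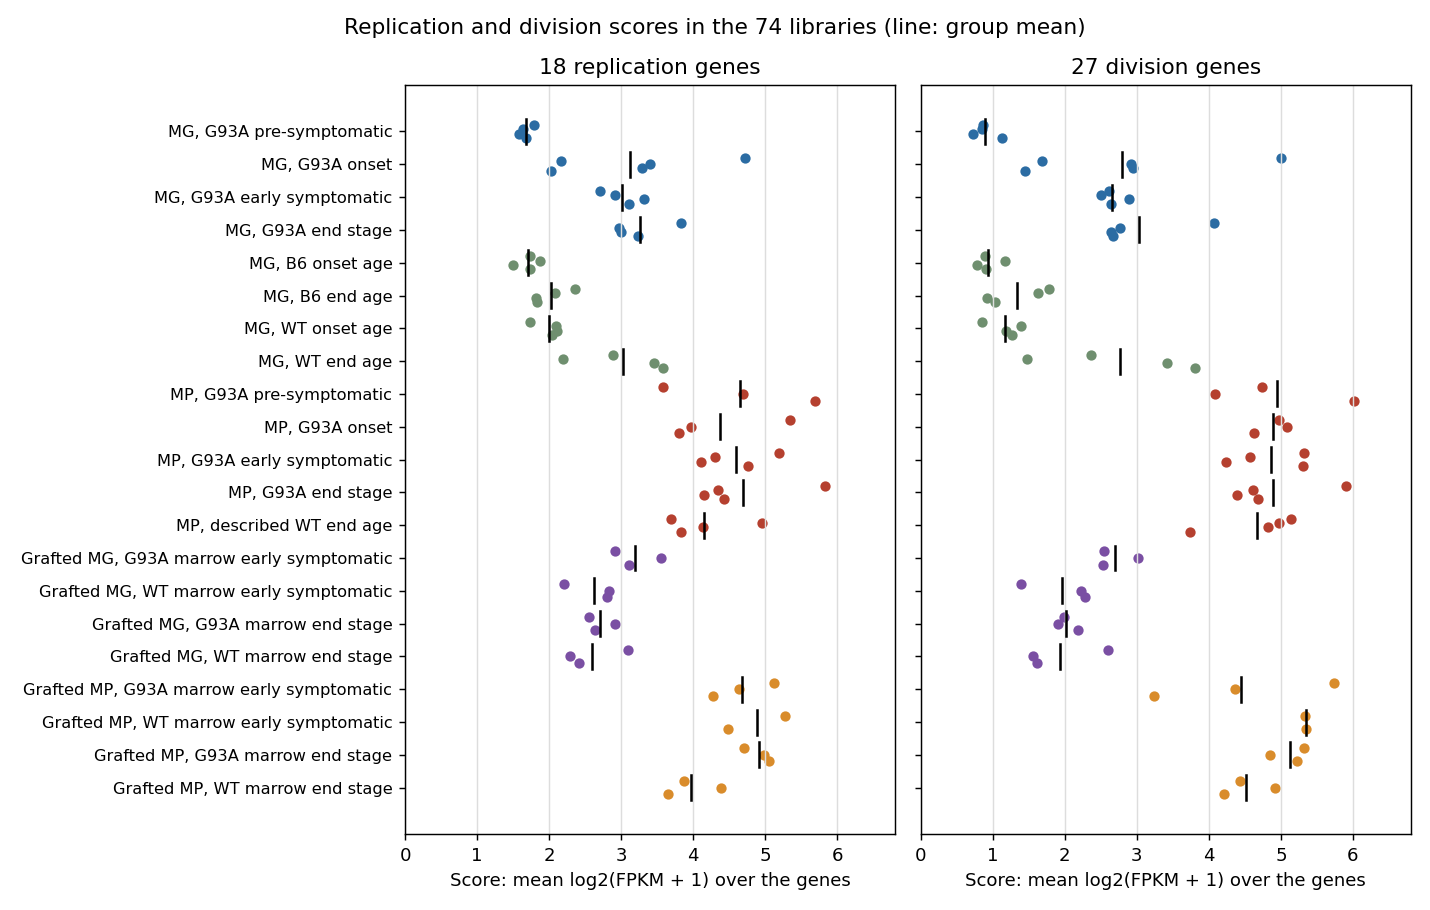
Replication score (18 genes, left) and division score (27 genes, right) in each of the 74 libraries, with one row of points per group and a line at the group mean. Pre-symptomatic microglia lie between 0.73 and 1.13 on the division score and early symptomatic ones between 2.50 and 2.89, while non-grafted macrophages lie between 3.74 and 6.02 at every stage.

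The replication score was 1.58 to 1.79 in pre-symptomatic MG, 2.02 to 4.72 at onset, 2.70 to 3.32 at the early stage and 2.98 to 3.84 at end stage. The division score was 0.73 to 1.13, 1.445 to 5.00, 2.50 to 2.89 and 2.64 to 4.07 in the same order. Both scores were thus apart from the pre-symptomatic libraries at every later stage, but the onset group was itself split. Onset replicates 1 and 4 had division scores of 1.445 and 1.68 and Mbp at 23950 and 18996 FPKM, replicates 2 and 3 had 2.95 and 2.92 with Mbp at 1575 and 568.3 FPKM, and replicate 5 had 5.00 with S100a8 at 39129 FPKM.

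**Figure D2:**
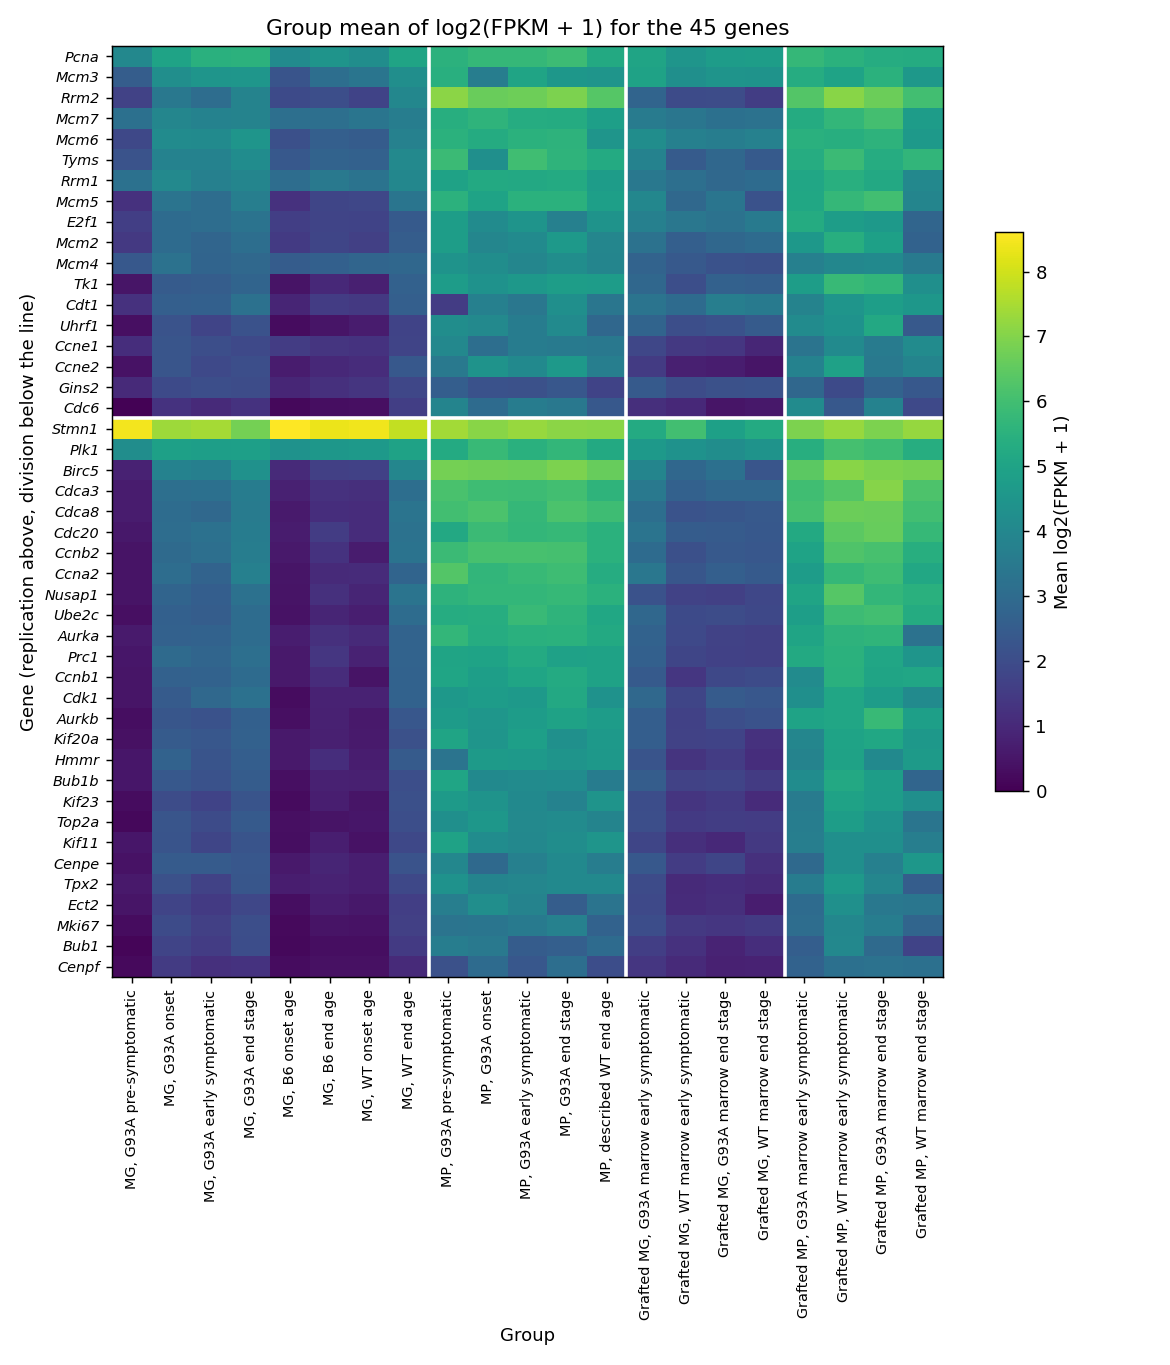
Group mean of log2(FPKM + 1) for each of the 45 genes (rows, replication above the white line and division below it) in the 21 groups (columns; white lines part non-grafted MG, non-grafted MP, grafted MG and grafted MP). Stmn1 is the gene that is high in pre-symptomatic and control microglia, at 354 FPKM on average before symptoms.

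Among the replication genes, the clamp Pcna was the most abundant in pre-symptomatic MG. Pcna measured 17.3, 14.5, 14.8 and 14.4 FPKM in the 4 pre-symptomatic libraries, 18.3, 48.1, 36.5, 18.5 and 47.8 FPKM at onset, 42.1, 50.7, 42.2 and 39.1 FPKM at the early stage, and 48.5, 44.95, 43.2 and 42.9 FPKM at end stage. No early or end stage library overlapped the pre-symptomatic range, and end stage replicate 4, rich in neutrophil RNA, was close to end stage replicate 3. On the log2(FPKM + 1) scale, Pcna rose by 0.98 ± 0.21 (SE) at onset, 1.45 ± 0.22 at the early stage and 1.4985 ± 0.22 at end stage against the pre-symptomatic group (limma, adjusted p = 0.0309, 9.35e-05 and 2.86e-05 over 11750 features). The 3 stage comparisons share that pre-symptomatic group.

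Mcm6, a subunit of the replicative helicase, showed the largest log2 differences of the replication genes in these 3 comparisons. It measured 3.28, 2.16, 2.02 and 3.13 FPKM before symptoms, 6.85, 23.5, 27.3, 5.88 and 45.2 FPKM at onset, 18.1, 24.6, 15.04 and 10.8 FPKM at the early stage and 22.04, 18.97, 20.2 and 25.03 FPKM at end stage. Every later library was above the pre-symptomatic range, and onset replicates 1 and 4 were the lowest of these. The rise was 2.29 ± 0.40 at onset, 2.28 ± 0.42 at the early stage and 2.64 ± 0.42 at end stage (adjusted p = 0.0216, 0.000588 and 6.42e-05, limma).

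Rrm2, the regulated subunit of ribonucleotide reductase, divided the libraries differently. It measured 3.12, 2.49, 1.66 and 2.01 FPKM before symptoms, 3.57, 7.10, 7.12, 4.11 and 93.7 FPKM at onset, 7.36, 9.31, 6.82 and 6.41 FPKM at the early stage, and 8.30, 8.60, 7.67 and 54.0 FPKM at end stage. Outside the G93A groups it was high in WT replicates 1 and 2 of end stage age, at 45.9 and 29.0 FPKM, against 3.52 and 8.90 FPKM in replicates 3 and 4. The 4 microglial libraries above 10 FPKM of Rrm2 were thus the 4 with S100a8 above 10000 FPKM. Its rise passed the threshold at end stage (2.13 ± 0.69, adjusted p = 0.0119, limma) but not at onset (1.72 ± 0.66, adjusted p = 0.0522) or the early stage (1.36 ± 0.69, adjusted p = 0.115).

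Mcm5 averaged 1.42 FPKM before symptoms, 14.1 ± 15.6 (SD, n = 5) at onset, 7.72 ± 2.73 (n = 4) at the early stage and 12.47 ± 5.16 (n = 4) at end stage, and rose in all 3 comparisons. Tyms, thymidylate synthase, averaged 3.74, 18.4, 13.4 and 17.5 FPKM in the same order and also rose in all 3. Ccne1 averaged 1.21, 5.28, 3.33 and 2.86 FPKM. It rose at onset (1.14 ± 0.34, limma adjusted p = 0.0391) and at the early stage (0.92 ± 0.36, adjusted p = 0.0496), and at end stage its difference of 0.75 ± 0.36 missed the threshold (adjusted p = 0.0783). Of the replication genes, Mcm4 (0.52), Mcm7 and Rrm1 had the smallest log2 differences at end stage. They were already at 4.26, 8.16 and 8.35 FPKM before symptoms.

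**Figure D3:**
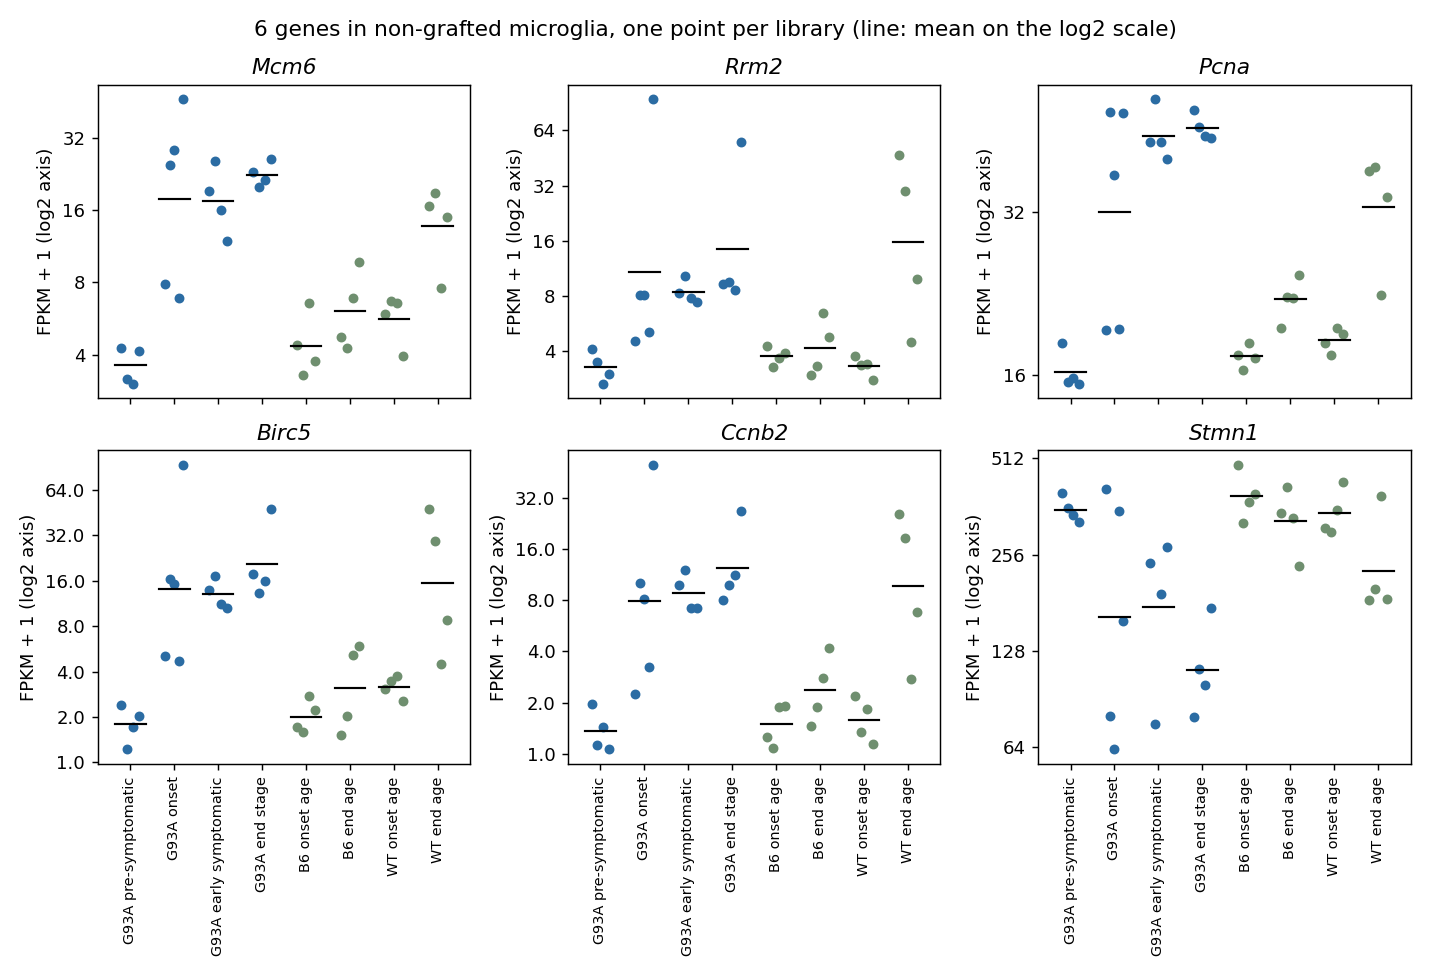
FPKM + 1 (log2 axis) of 3 replication genes (top) and 3 division genes (bottom) in each non-grafted microglial library, with blue for G93A, green for B6 and WT SOD1 controls and a line at the group mean on the log2 scale. Rrm2 stands out in onset replicate 5 at 93.7 FPKM and end stage replicate 4 at 54.0 FPKM, and Stmn1 is lower at end stage than before symptoms.

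The division genes started closer to 0. Before symptoms, 25 of the 27 averaged under 1 FPKM, the exceptions being the shared Plk1 feature at 18.0 FPKM and Stmn1 at 354 FPKM. Mki67, the proliferation antigen, measured 0.39, 0.16, 0.32 and 0.01 FPKM before symptoms, 0.67, 4.35, 2.42, 0.90 and 15.3 FPKM at onset, 2.02, 3.08, 1.47 and 1.95 FPKM at the early stage and 2.28, 2.40, 2.01 and 8.12 FPKM at end stage. All later G93A libraries exceeded the pre-symptomatic range, with onset replicate 5 and end stage replicate 4 far above the others.

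Birc5, which guides chromosome attachment and also blocks cell death, gave the largest log2 difference of all 45 genes at each stage. It measured 1.4, 0.22, 0.72 and 1.03 FPKM before symptoms, 4.05, 15.6, 14.3, 3.67 and 93.4 FPKM at onset, 12.95, 16.4, 10.2 and 9.62 FPKM at the early stage and 16.7, 12.3, 14.9 and 47.2 FPKM at end stage. Every later library lay above the pre-symptomatic range, while onset, early and end stage overlapped one another, and onset replicates 1 and 4 were the lowest of the later libraries. The rise was 2.98 ± 0.65 at onset, 2.87 ± 0.69 at the early stage and 3.53 ± 0.69 at end stage (limma adjusted p = 0.0323, 0.00426 and 0.000384).

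Ccnb2, a cyclin that activates Cdk1 for mitosis, measured 0.95, 0.13, 0.44 and 0.06 FPKM before symptoms, 1.26, 9.16, 7.18, 2.22 and 49.3 FPKM at onset, 8.84, 11.0, 6.21 and 6.21 FPKM at the early stage, and 7.03, 8.81, 10.2 and 25.9 FPKM at end stage. It was above the pre-symptomatic range in all 13 later libraries, and rose by 2.54 ± 0.63, 2.71 ± 0.66 and 3.198 ± 0.66 in order of stage (limma adjusted p = 0.0391, 0.00461 and 0.000578). Besides Birc5 and Ccnb2, the 3 largest rises included Ccna2 at onset (2.60 ± 0.66) and end stage (3.26 ± 0.69), and Cdc20, which targets cyclins for destruction, at the early stage (2.66 ± 0.64). Cdk1 averaged 0.41 FPKM before symptoms and 7.63, 6.70 and 8.68 FPKM at the later stages. Top2a, the enzyme that disentangles chromosomes, averaged 0.15 FPKM and then 6.61, 3.02 and 4.84 FPKM, and both genes rose in all 3 comparisons.

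Stmn1 went the other way. Stathmin destabilises microtubules in dividing cells but is also abundant in neurons. It measured 397, 356, 340 and 323 FPKM before symptoms, 410, 79.1, 62.0, 350 and 158 FPKM at onset, 239, 74.8, 191 and 270 FPKM at the early stage and 78.8, 111.5, 99.3 and 173 FPKM at end stage. The early and end stage libraries were all below the pre-symptomatic ones, whereas onset replicates 1 and 4 were not. Stmn1 fell by 1.12 ± 0.42 at onset (limma adjusted p = 0.0488) and by 1.66 ± 0.44 at end stage (adjusted p = 0.00317), and its difference of -1.01 ± 0.44 at the early stage missed the threshold (adjusted p = 0.0686). The summed level of 6 neuron markers moved with it, from 347 to 478 FPKM before symptoms to 14.01 to 122.6 FPKM at end stage, and was 13.8 to 483 FPKM at onset. With the oligodendrocyte markers as a term in the limma fit, the Stmn1 difference at onset turned to 0.14.

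**Figure D4:**
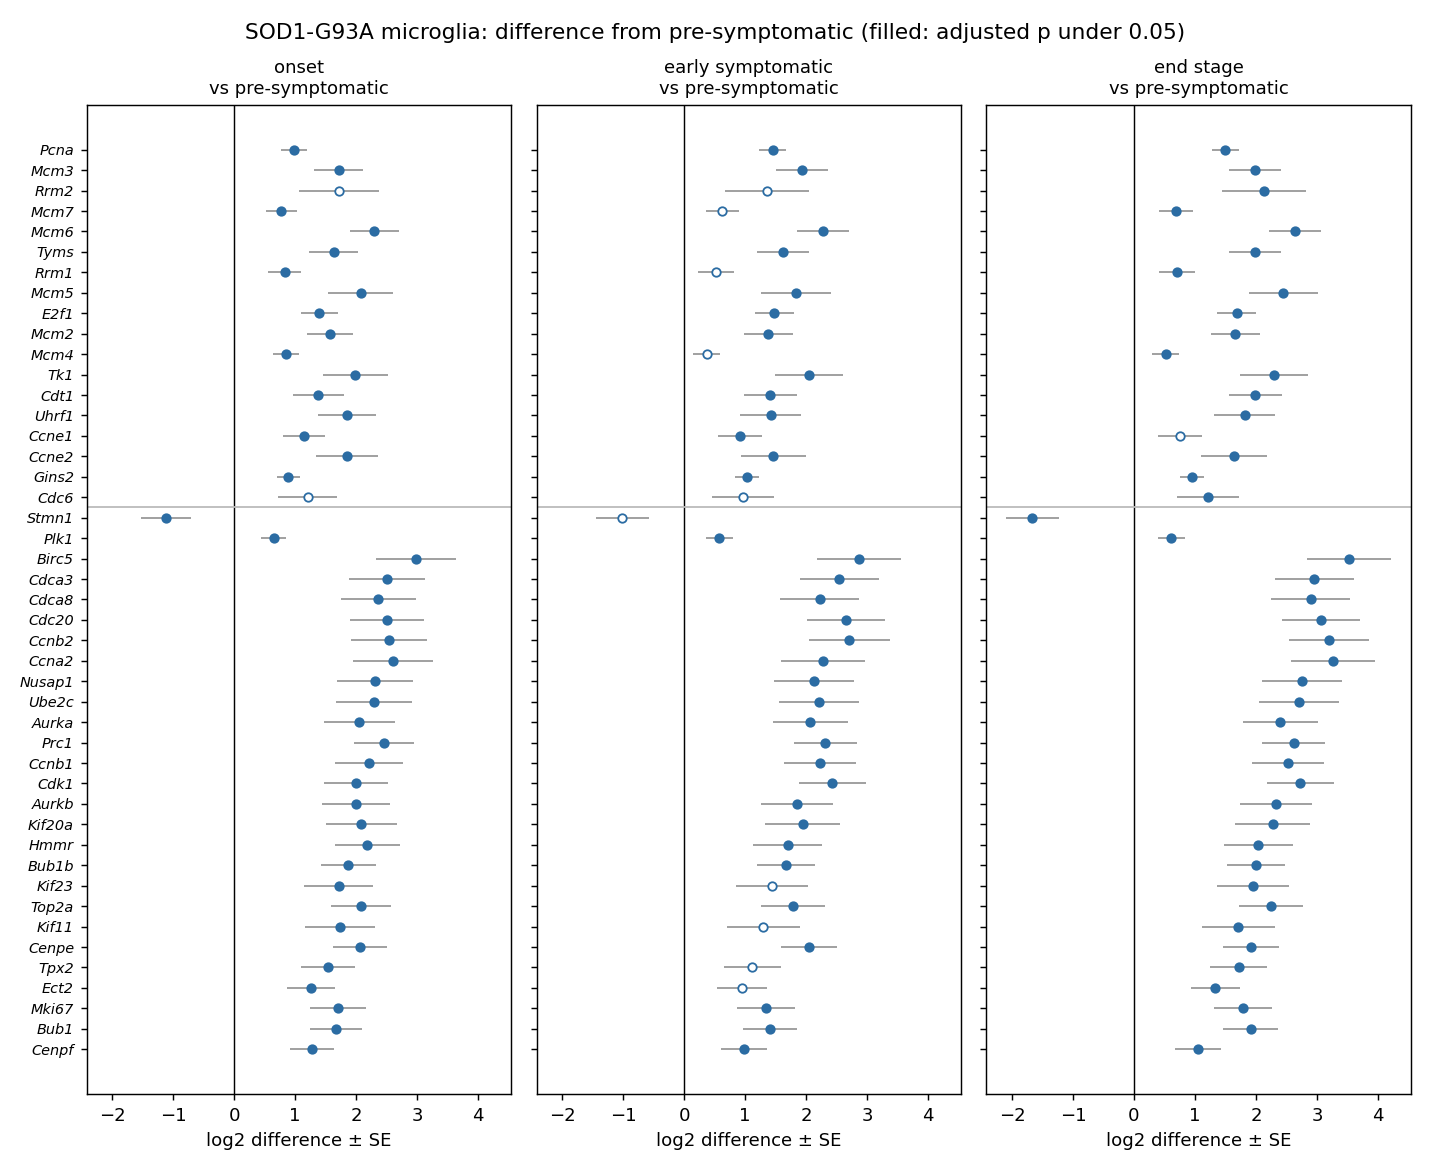
Difference of each gene from the pre-symptomatic group on the log2(FPKM + 1) scale with its standard error, at onset, the early symptomatic stage and end stage (n = 5, 4 and 4 against 4). Filled points passed an adjusted p of 0.05: 43, 35 and 44 of the 45, all of them higher except Stmn1 at onset and end stage.

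Counted over the list, 42 of the 45 genes rose and 1 fell at onset, where 25.4% of all features tested were called in either direction, 10.3% as higher and 15% as lower. Rrm2 and Cdc6 were the genes not called. At the early stage 35 rose and none fell (35.2% of all features were called, 19.2% as higher), and at end stage 43 rose and 1 fell (55.9% called, 24.8% as higher and 31.1% as lower), Ccne1 being the gene not called. The median log2 difference of the 45 was 1.84, 1.62 and 1.99, and of the features tested 0.14, 0.05 and 0.03. Division genes had larger medians (2.06, 1.94 and 2.27) than replication genes (1.48, 1.42 and 1.67), which was not tested. The onset count rested on single libraries: it was 0 without onset replicate 2 or 3 or pre-symptomatic replicate 2 or 3, 1 without onset replicate 5 and 2 without pre-symptomatic replicate 1. It was also 0 when only the libraries compared were fitted and 1 with no filter on low values. In these fits 0 to 10 of all features were called, so the calls were lost over all features and not for these genes alone. The end stage count was 36 to 44 whichever library was left out, and the early count was 24 to 35 except for 17 without early replicate 2, where 1534 of all features were called in place of 4137.

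Without the 4 neutrophil-rich libraries, 15 genes rose at onset, 41 genes were called at the early stage and 41 at end stage, of which 15, 33 and 40 had also been called with all libraries. The shares of all features called were 0.379%, 42.3% and 60.1%. With the neutrophil precursor markers as a term, the counts were 14, 40 and 36, beside 0.426%, 33.7% and 44.7% of all features. With the oligodendrocyte markers as a term they were 0, 13 and 11, beside 0%, 15.2% and 16.2%. With both terms they were 0, 28 and 15, beside 0%, 19.5% and 18.7%, so at onset no feature at all was called with either of these settings. The early libraries had Camp between 25.9 and 110.8 FPKM, and the pre-symptomatic ones between 1.89 and 34.3. From the early to the end stage no gene was called (0 of 11750 features, and 0 of the 45 at an unadjusted p under 0.05), with a median of 0.34.

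**Figure D5:**
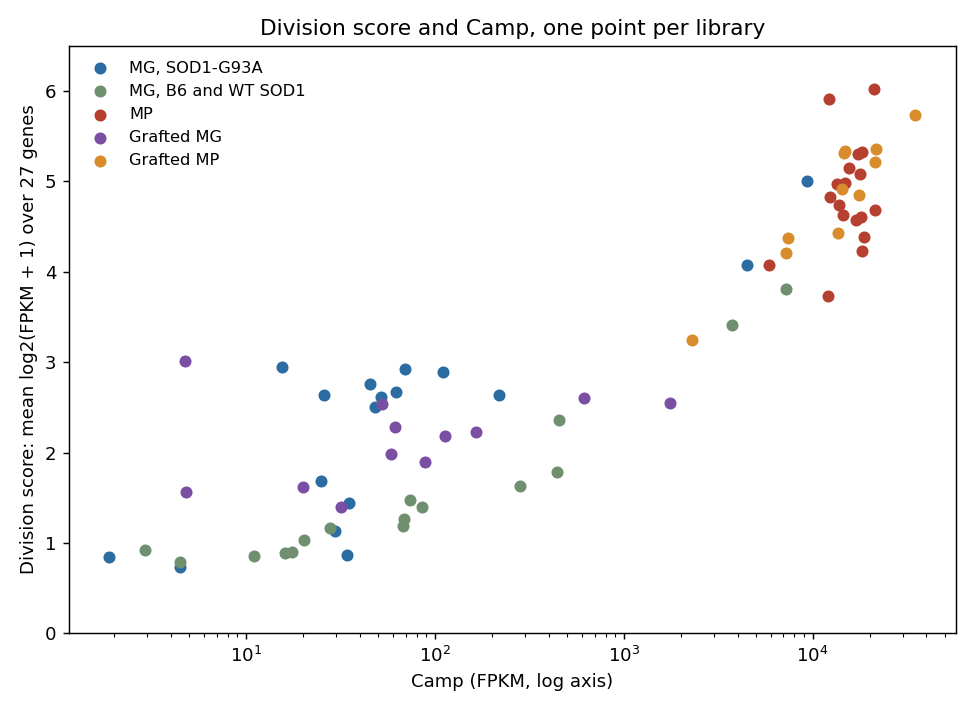
Division score (mean log2(FPKM + 1) over 27 genes) against Camp in FPKM on a log axis, one point per library and one colour per kind of library. The 11 G93A microglial libraries from onset to end stage with S100a8 under 10000 FPKM hold Camp between 15.5 and 220 FPKM and span division scores from 1.445 to 2.95, and the 33 libraries with the most Camp lie between 3.24 and 6.02.

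Genes of the same processes outside the 45 were counted from lists chosen by function, and their counts stand beside the shares of all features called as higher at onset, early and end stage (10.3%, 19.2% and 24.8%) and as lower (15%, 16% and 31.1%). Of 25 other replication genes 16 were expressed enough to test, and 9, 6 and 9 rose at onset, early and end stage while none fell. The histone chaperone subunit Chaf1b rose by 2.01 ± 0.44 at end stage (limma adjusted p = 0.000931), and the lagging-strand enzymes Fen1 and Lig1 by 1.58 ± 0.33 and 1.36 ± 0.34. Of 28 other division genes 24 were tested, and 19, 13 and 18 rose. The centromeric histone Cenpa rose by 3.22 ± 0.64 at end stage and the mitotic kinase Pbk by 2.50 ± 0.49, and the securin Pttg1 fell by 0.81 ± 0.21. Of 7 genes of G1 entry, 3, 4 and 5 rose: Myc by 1.93 ± 0.43 and the kinase Cdk4 by 0.98 ± 0.21 at end stage, when the cyclin Ccnd2 fell by 1.395 ± 0.57. Brakes of the cell cycle were split: of 13 tested, 6 rose and 3 fell at end stage. The inhibitors Cdkn2c (1.83 ± 0.46) and Cdkn1a (1.01 ± 0.28) rose, while Cdkn1c fell by 1.12 ± 0.25 and the retinoblastoma genes Rb1 and Rbl2 fell by 0.92 ± 0.22 and 0.86 ± 0.18.

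Against controls of the same age, the number of genes called depended on the control, and the controls were not tested against each other. The medians at onset age were 1.89 against B6 and 1.55 against WT SOD1 mice. There, 45 and 43 of the 45 genes had an unadjusted p under 0.05 (limma), against 62.5% and 34.7% of all features. At onset age, 41 genes were higher and Stmn1 lower in G93A than in B6 mice (55.1% of all features were called, 29.4% as higher and 25.7% as lower), with Birc5 the largest at 2.81 ± 0.65 (limma adjusted p = 0.00756), followed by Ccna2 and Cdc20. Against WT SOD1 mice of that age, 13 were higher and none lower (4.31% called, 1.04% as higher and 3.27% as lower), led by Ccnb2 at 2.32 ± 0.63, Ccnb1 at 2.23 ± 0.56 and the spindle midzone protein Prc1 at 2.16 ± 0.49 (limma adjusted p = 0.0482, 0.0482 and 0.0453). Birc5 was at 2.06, 2.49, 2.75 and 1.55 FPKM in these WT libraries and 0.72, 0.58, 1.75 and 1.21 FPKM in the B6 ones, all below the lowest onset library. The count of 13 was unstable: it was 0 when any 1 WT library or onset replicate 2, 3 or 5 was left out, 44 and 42 without onset replicates 1 and 4, 1 without the neutrophil-rich libraries and 39 with the neutrophil term. The counts of 0 came with 2 to 16 of all features called, those of 44 and 42 with 4978 and 4250, the count of 1 with 0.155% of all features and that of 39 with 12%.

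At end stage age, 37 genes were higher and Stmn1 lower in G93A than in B6 mice (46.2% called, 18.3% as higher and 28% as lower), led by Birc5 at 2.73 ± 0.69, Ccna2 at 2.70 ± 0.69 and the chromosome passenger subunit Cdca8 at 2.44 ± 0.65 (limma adjusted p = 0.00343, 0.00375 and 0.00472). Without end stage replicate 4 the count of called genes was 25, with 5554 of all features called in place of 5432. With the oligodendrocyte markers as a term, the counts against B6 mice were 0 at onset age and 12 at end stage age, beside 0.145% and 25.9% of all features, so the second is near the share over all features. Against WT SOD1 mice of that age none of the 45 was called (7% of all features were, 4.19% as lower), 3 (6.67%) had an unadjusted p under 0.05 against 24.4% of all features, and the median difference was 0.29. The WT group itself ranged widely: Birc5 was 47.0 and 28.3 FPKM in the neutrophil-rich replicates 1 and 2, and 3.52 and 7.80 FPKM in replicates 3 and 4. Without the neutrophil-rich libraries, which leaves 3 G93A and 2 WT libraries, the median over the 42 genes tested was 0.74 and 3 genes were called as higher: E2f1 (1.33 ± 0.34), Kif20a (1.36 ± 0.41) and Tpx2 (0.97 ± 0.30). With the neutrophil term Mcm6, E2f1, Ccna2 and Cdca3 were called as higher, between 1.03 and 1.61. In these 2 fits 14.4% and 12.9% of all features were called, a larger share than among the 45 genes. These genes were named after their values were seen.

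In sciatic nerve macrophages the genes were high at every stage, and no change with disease was called. Birc5 measured 227, 99.6 and 61.7 FPKM before symptoms, 84.4, 105 and 130 FPKM at onset, 147, 54.9, 82.4 and 178 FPKM at the early stage and 84.8, 96.1, 77.5 and 314 FPKM at end stage. Rrm2 measured 221, 165 and 70.2 FPKM before symptoms, 80.8, 84.4 and 146 FPKM at onset, 141, 72.9, 60.5 and 191 FPKM at the early stage and 92.96, 58.9, 100 and 369 FPKM at end stage. For both genes the stages overlapped, and the highest library was end stage replicate 4. That library also had the highest Hba-a1, an erythroid haemoglobin gene, of the non-grafted MP libraries, at 115143 FPKM.

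None of the 45 genes was called between the pre-symptomatic stage and onset, the early stage or end stage, or between end stage and the libraries described as WT (limma, 0%, 0%, 0.00975% and 0% of 10260 features called). The counts at an unadjusted p under 0.05 were 2, 1, 2 and 1 of 45, or 4.44%, 2.22%, 4.44% and 2.22%, against 4.62%, 5.21%, 6.54% and 6.45% of all features. The median log2 differences were -0.21, -0.16, -0.11 and 0.34. The smallest adjusted p of any member was 0.525 (limma), for the licensing factor Cdt1 at end stage. Cdt1, singled out after its values were seen, was at 21.1, 0.09 and 0 FPKM in the 3 pre-symptomatic libraries and between 3.69 and 28.45 FPKM in the 15 others, so the first pre-symptomatic library lay within their range. Without that library, 1 gene was called at the early stage and 1 at end stage. The number called over all features in these fits is not given here, so these calls are not read as particular to the 45 genes.

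Macrophage and microglial libraries were compared before symptoms and at end stage, and differed more before symptoms. There, 43 genes were higher and Stmn1 lower in MP (54.7% of 11773 features called, 23.6% as higher and 31% as lower), with a median of 3.82. Birc5 averaged 129.3 FPKM in MP and 0.84 FPKM in MG and differed by 5.98 ± 0.68 (limma adjusted p = 4.99e-09), followed by Ccna2 at 5.83 ± 0.71 and Cdca3 at 5.51 ± 0.64. At end stage 36 were higher in MP (39.4% called, 13.1% as higher), with a median of 1.77, led by Rrm2 (3.07 ± 0.65), Cdca8 (2.61 ± 0.60) and Ccne2 (2.55 ± 0.88). S100a8 was at 13.96 to 157 FPKM in the MG and 24808 to 62869 FPKM in the MP before symptoms. With the neutrophil term the counts were 19 and 0, beside 23.3% and 15.5% of all features. The mean level of these markers did not overlap between MG and MP at either stage, so the term and the cell type cannot be told apart. Without end stage MP replicate 4 the end stage count was 20, with 4548 of all features called in place of 4636.

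The difference between end stage and pre-symptomatic libraries was itself compared between the cell types, and it differed for 22 of the 45 genes, all in the lower direction for MP relative to MG (19.8% of all features called, 10.3% as lower): 5 replication and 17 division genes. The largest were Ccna2 (-3.63 ± 0.97), Birc5 (-3.44 ± 0.93) and Cdca3 (-3.10 ± 0.88), with limma adjusted p = 0.0103, 0.0111 and 0.0137. Ccna2 averaged 0.41 and 15.003 FPKM in MG and 85.4 and 73.7 FPKM in MP at the 2 stages. The count was 11 to 30 when any 1 library was left out, lowest without pre-symptomatic MP replicate 1 and highest without end stage MP replicate 4, 13 without pre-symptomatic MG replicate 2 or end stage MG replicate 4, and 14 without end stage MP replicate 2. Over all features these 5 fits called between 1471 and 2529, in place of 2329, and the 11 genes of the first were 9 lower and 2 higher.

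In grafted mice the marrow donor made no difference that passed the test. For MG, 43 of the 45 genes were expressed enough to test, and none was called in any of 4 comparisons (0 of 11143 features each). At the early stage the genes leaned lower with WT marrow: 44 of 45 differences were negative, with a median of -0.75 against -0.06 over all features, and 9 of the 43 (20.9%) had an unadjusted p under 0.05, as had 11% of all features. Mcm6 measured 14.7, 27.98 and 13.7 FPKM with G93A marrow and 16.8, 17.3 and 6.21 FPKM with WT marrow, so the groups overlapped. Mki67 measured 3.05, 4.98 and 1.81 against 2.61, 2.56 and 0.50 FPKM. WT marrow replicate 3, the lowest in both, had Mbp at 21258 FPKM against 446 to 5325 FPKM in the other 5 libraries. At end stage the median was -0.05 and the division scores were 1.90 to 2.18 with G93A marrow and 1.56 to 2.60 with WT marrow. Between stages the median was -0.59 with G93A marrow and -0.04 with WT marrow, and 0 genes had an unadjusted p under 0.05 in either.

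Grafted macrophages again had high levels throughout, with division scores from 3.24 to 5.73, and none of the 45 genes was called in 4 comparisons (0 of 10299 features each). With WT against G93A marrow the median was 0.68 at the early stage, with 2 against 3 libraries, and -0.67 at end stage, where 7 genes (15.6%) had an unadjusted p under 0.05, near the 15.4% of all features. Between stages it was 0.52 with G93A marrow and -0.68 with WT marrow, where 8 genes (17.8%) had an unadjusted p under 0.05 against 8.22% of all features. In the other 2 comparisons none of the 45 did, against 2.38% and 4.22% of all features. Ccnb2 measured 8.12, 35.01 and 99.3 FPKM with G93A marrow at the early stage, 75.5 and 71.8 with WT marrow, then 58.2, 60.7 and 86.1 with G93A marrow and 24.97, 63.2 and 43.96 FPKM with WT marrow at end stage. The lowest of these, early G93A marrow replicate 1, also had the lowest S100a8 of the grafted MP, at 8355 FPKM against 28891 to 71623 FPKM in the other 10.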

How the data were processed

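RNA-seq libraries were analysed from the FPKM values that the authors deposited in 2 tables, 1 for non-grafted and 1 for grafted mice, per the file headers. Per the submitters' processing notes, the genome build was mm10, and the tools listed include R 3.2.5, DESeq2, SAMtools, Picard and FastQC. For the aligner and counter, nothing is given in the sources used here. Intervals for counting error need a read depth, which is unknown.

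Features with a symbol and a mean of at least 1 FPKM over a fit's libraries were transformed to log2(FPKM + 1), which understates the change of low genes. Group means were fitted with limma 3.58.1 in R 4.3.3 (moderated variance with a trend), separately for MG, MP, grafted MG, grafted MP, and MG with MP. P-values were adjusted by Benjamini-Hochberg over all features tested, and a gene was called at an adjusted p under 0.05. Medians over the 45 genes used all of them, filtered or not. The fits were tested on simulated data.

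The members and lists were chosen with earlier results of these data known. Values per library were given for 12 genes chosen by role, and the 3 called genes with the largest change in each comparison were named, as was any called gene moving against the rest. Of the other lists up to 4 called genes were named. Alternatives were another pseudocount, no filter, median-ratio scaling, a replicate block, marker terms, leaving out libraries, and fitting only the groups compared. The oligodendrocyte terms were added after seeing the data. Each microglial library came from 1 spinal cord.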

Additional observations from a re-analysis of the deposited data

Results flagged for a closer look

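In 154 checks of a group and a measure, 27 had a highest or lowest library far from the others. The measures share libraries and FPKM were checked without a log transform, so this count is not set against a chance rate. Onset MG replicate 5, with S100a8 at 39129 FPKM, stood apart for Rrm2 (93.72 FPKM), Ccne1 (15.89), Mki67 (15.3), Top2a (22.43), Ccnb2 (49.27) and Birc5 (93.42). End stage MG replicate 4, with S100a8 at 20413 FPKM, stood apart for Rrm2 (54.05 FPKM), Mki67 (8.12), Top2a (8.87), Ccnb2 (25.95), Birc5 (47.16) and the division score (4.071). The part of neutrophil RNA in these values was not tested. Hba-a1 was also the highest of its group in these libraries, at 16267 and 6874 FPKM, and the part of erythroid RNA was not tested.

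End stage MP replicate 4, with Hba-a1 at 115143 FPKM, stood apart for Mcm6 (104.56 FPKM), Pcna (122.48), Rrm2 (368.7), Tyms (109.89), Ccne1 (49.53), Cdk1 (73.25), Ccnb2 (141.16), Birc5 (313.96) and the replication score (5.825). Single values apart from their groups were Pcna in pre-symptomatic MG replicate 1 (17.34 FPKM), Tyms in WT MG of onset age replicate 3 (6.57 FPKM) and Stmn1 in WT MG of end stage age replicate 3 (390.67 FPKM). Others were Stmn1 in early MP replicate 1 (226.92 FPKM), Mki67 in replicate 2 of the MP described as WT (17.19 FPKM) and the replication score of WT MG of onset age replicate 4 (1.737).

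The stage difference in MP minus that in MG passed the limma test for 7 of the 12 genes given by library. On the log2 scale it was -2.461 for Mcm5, -2.5826 for Mcm6, -2.2545 for Tyms, -2.3788 for Top2a, -2.9851 for Ccnb2, -2.1085 for Cdk1 and -3.4405 for Birc5.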

How the results depend on the processing

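For genes given by library in comparisons with calls, 1669 values under an alternative kept their direction and side of the threshold, 404 lost the call, 51 gained one and 8 reversed; where no value shows it, the cause was not tested. The onset against pre-symptomatic count of 43 became 1 with no filter, 14 with the neutrophil term, 15 without the 4 neutrophil-rich libraries, and 0 with the groups compared alone, the oligodendrocyte term or both terms. The onset against WT count of 13 became 28 with a pseudocount of 0.1, 2 with median-ratio scaling and 39 with the neutrophil term. It was 1 without the neutrophil-rich libraries or with both terms, and 0 with no filter, the groups compared alone or the oligodendrocyte term. Of all features, 12% were called with the neutrophil term and 0.155% without the neutrophil-rich libraries. With both terms 0.0681% were called and with the oligodendrocyte term 0.00851%. For a pseudocount of 0.1, median-ratio scaling, no filter and the groups compared alone, the numbers called over all features are not given here. The onset against WT counts with these settings are thus not read as particular to the genes of the list. Onset against B6 (42) became 0 with the groups compared alone (number over all features not given here), the oligodendrocyte term (0.145% of all features called) or both terms (0.187%). With the oligodendrocyte term the early count (35) became 13, the end stage count (44) 11 and end stage against B6 (38) 12. With both terms the last became 24, beside 29.2% of all features, and end stage against pre-symptomatic became 15. End stage against WT (0) became 4 with the neutrophil term, 3 without the neutrophil-rich libraries, 1 with the oligodendrocyte term and 3 with both. The shares of all features called were 12.9%, 14.4%, 17.7% and 19.9% in that order. MP against MG became 19 before symptoms and 0 at end stage with the neutrophil term, where Mcm5 reversed to -0.0615, Mcm6 to -0.41, Pcna to -0.21 and Top2a to -0.11. Stmn1 reversed at onset with the oligodendrocyte term (0.14 against pre-symptomatic, 0.049 against WT) and with both terms (0.10 and 0.055).

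Leaving out 1 library gave 0 to 45 calls for onset, 17 to 35 for early and 36 to 44 for end stage against pre-symptomatic MG. It gave 0 to 44 for onset against WT, 36 to 45 for onset against B6, 0 to 1 for end stage against WT and 25 to 37 for end stage against B6. It gave 39 to 44 and 20 to 36 for MP against MG before symptoms and at end stage, and 11 to 30 for the difference between them. It gave 0 to 1 for early and for end stage MP against pre-symptomatic MP, 0 to 2 for grafted MG by donor at the early stage and 0 to 1 for grafted MP by donor at end stage. Where the number called over all features is not given above, these ranges are not read as particular to the 45 genes. Same-numbered libraries of different stages came from separate mice, and the labels do not say whether cord and nerve libraries of one number shared a mouse. Correlations of same-numbered libraries ran from -0.67 to 0.60 for onset against pre-symptomatic and from 0.01 to 0.18 for MP against MG at end stage. With the replicate number as a block, onset against WT became 0, early 41, end stage 45 and the cell type difference 26. The numbers called over all features with the block are not given here, so these counts are not read as particular to the 45 genes.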
